A study of Homo sapiens with 4 samples.

Results

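The genes described here are the 9 members of the Hedgehog and parathyroid hormone-related pathway, namely IHH, HHIP, PTCH1, SMO, GLI1, GLI2, GLI3, PTHLH and PTH1R, out of 61806 genes in the authors' table. They were taken by gene symbol, and each symbol matched a single gene. RNA was sequenced from the human chondrosarcoma cell line JJ012 and the human osteosarcoma cell line 143B, both kept in suspension. Each line gave 1 untreated control library and 1 library after melatonin, a hormone of the pineal gland, at 1 mM for 72 h. Both lines are established cell lines, and the study used melatonin to ask how detached bone cancer cells lose their resistance to anoikis, the death that follows loss of attachment.

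In the growth plate, prehypertrophic chondrocytes secrete Indian hedgehog (IHH). Hedgehog ligands bind PATCHED1 (PTCH1), which otherwise holds the membrane protein Smoothened (SMO) inactive, and released SMO acts in the primary cilium on the zinc finger transcription factors GLI1, GLI2 and GLI3. PTCH1, GLI1 and the decoy receptor HHIP are themselves induced by the pathway, so their transcripts are commonly read as its output. IHH also raises parathyroid hormone-related protein (PTHLH) in the periarticular cartilage, and this peptide, through the receptor PTH1R and cyclic AMP, delays the hypertrophy of chondrocytes. The loop is known to be active in cartilage tumours.

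The libraries held between 15889564 and 19218343 counts, and 3 counts, taken as the floor of detection, corresponded to between 0.156 and 0.189 CPM (counts scaled to the library total). With 1 library per condition, no difference within a cell line could be set against the spread between cultures. A fit over all 4 libraries, with 1 residual degree of freedom, is given after the comparisons. Intervals below are exact (Clopper-Pearson) 95% intervals of the ratio of counts. They hold for counting error alone, because 1 library per condition shows no spread between cultures. Copies made by PCR do not count separate molecules, so the intervals may be too narrow even for counting error. In bulk RNA, fewer cells of a type and less RNA per cell cannot be told apart.

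The labelled cell types were set against their markers. The chondrocyte regulator SOX9 was read at 15.06 FPKM (fragments scaled to exonic length and to the library total) in the JJ012 control, but the cartilage collagen gene COL2A1 had 0 counts in both JJ012 libraries. The 14 chondrocyte markers summed to 49.5 FPKM in the JJ012 control and 13.4 FPKM after melatonin, against 86.3 and 74.8 FPKM in 143B. The 11 osteoblast markers summed to 111 and 71.7 FPKM in JJ012 and to 8.54 and 6.91 FPKM in 143B, with 0 counts of DMP1 in all 4 libraries and of IBSP in both of 143B. SPP1 alone made up 79.39 FPKM of this sum in the JJ012 control and 64.50 FPKM after melatonin. In 143B it had 0.40 and 0.53 FPKM. The collagen gene COL9A3 made up 62.47 FPKM of the chondrocyte sum in the 143B control and 3.18 in the JJ012 control. Without it the sums were 46.3 and 12.7 FPKM in JJ012 and 23.8 and 20.9 FPKM in 143B. The JJ012 sums rested in turn on the collagen gene COL11A1, at 22.92 FPKM in the control and 3.24 FPKM after melatonin. COL11A1 had 0.00 FPKM in both 143B libraries, so the order of the lines in these sums depends on single genes. Of 10 markers of other cell types, 9 lay above 3 counts in untreated and 8 in treated JJ012, with sums of 17.6 and 7.12 FPKM, and 5 and 4 did so in 143B, with sums of 4.66 and 4.13 FPKM. The T cell gene CD3E had 497 and 141 counts in JJ012 and 0 in 143B. The part of these markers in the results below was not tested.

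Ligand and decoy receptor transcripts were at or near the floor. IHH (ENSG00000163501, chromosome 2, 219054424 to 219060921, minus strand, hg38) had 0 counts in both JJ012 libraries, 3 counts in the 143B control and 1 count after melatonin. No library exceeded the floor, so IHH was not detectable at this depth. The 0 counts allow up to 0.156 CPM in the untreated and 0.186 CPM in the treated JJ012 library. HHIP, which binds hedgehog ligands outside the signalling route, had 2 counts in untreated and 1 count in treated JJ012. The untreated 143B library held 21 counts of it and the treated one 31, or 0.11 and 0.15 FPKM. HHIP was thus read above the floor in 143B alone, at a low level there.

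Another ligand of the family was read in 143B. SHH, which encodes Sonic hedgehog, had 217 counts (2.61 FPKM) in the 143B control and 100 counts (1.11 FPKM) after melatonin, but 2 and 0 counts in the control and treated JJ012 libraries. DHH, which encodes Desert hedgehog, had between 4 and 13 counts in every library. Of the 3 hedgehog ligands, SHH was the single one to reach 1 FPKM, and it did so in both 143B libraries.

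Of the receptors, SMO split the lines, while the FPKM of PTCH1 overlapped between them. PTCH1 (ENSG00000185920, chromosome 9, 95442980 to 95517057, minus strand) had 255 counts in the JJ012 control, 357 in treated JJ012, 265 in the 143B control and 350 in treated 143B. Its level ranged from 0.77 to 1.28 FPKM, with the treated library the higher of the pair in each line. SMO (ENSG00000128602, chromosome 7, 129188633 to 129213545, plus strand) had 435 and 445 counts in the 143B control and treated libraries, which is 5.76 and 5.46 FPKM. In JJ012 it had 18 counts untreated and 3 treated, or 0.20 and 0.04 FPKM. SMO was the most abundant member in 143B and lay at the floor in treated JJ012, so the pair of receptors was read together in 143B and PTCH1 with little SMO in JJ012. The ratio of PTCH1 to SMO in FPKM was 0.168 and 0.216 in 143B and 3.85 and 32.0 in JJ012.

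Sequence around the starts of 7 of the members, in 13 RefSeq windows of GRCh38.p14 reaching from 250 bases before a start to 50 after it, was searched on both strands for the core sequence bound by GLI factors, TGGGTGGTC (GACCACCCA on the other strand), and for the cyclic AMP response element, TGACGTCA, which reads the same on both strands. These were chosen because PTCH1, GLI1 and HHIP are read as GLI output and because PTH1R acts through cyclic AMP. GLI1 and GLI3 had no window. The GLI letters were found in 1 of the 13 windows, that of a PTCH1 start, and in 0.236% of all 35116 windows. The cyclic AMP letters were found in 1 of the 13, that of HHIP, and in 1.85% of all windows. The stretches are shown with the motif in capitals, at chr9:95509400-95509468 on the minus strand, inside the PTCH1 gene, and at chr4:144646051-144646118 on the plus strand, before the start of HHIP.

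PTCH1: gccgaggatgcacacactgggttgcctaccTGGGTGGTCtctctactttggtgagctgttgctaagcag
HHIP: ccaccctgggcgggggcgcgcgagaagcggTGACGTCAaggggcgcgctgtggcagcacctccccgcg

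These matches describe letters and not binding. The PTCH1 motif begins 172 bases before that start, and of the 2 genes PTCH1 was read in every library and HHIP above the floor in 143B alone.

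The 3 GLI factors also differed in make-up. GLI3, which serves largely as the repressor of the pathway, had 673 and 748 counts in JJ012 and 647 and 611 in 143B, between 2.54 and 3.36 FPKM. GLI2, the main activator, had 60 and 86 counts in JJ012 and 288 and 290 in 143B. GLI1, an activator that is also a target, had 124 and 75 counts in JJ012 and 9 and 10 counts in 143B. The FPKM of GLI3 overlapped between the lines, while GLI2 was higher in both 143B libraries and GLI1 in both JJ012 libraries. The libraries of a line differ in treatment, and the share of all genes that split the lines in this way was not counted. Summed in FPKM, the 3 factors reached between 4.35 and 5.42 in every library. GLI1 made up 32.4% of that sum in the JJ012 control and 20.1% after melatonin, against 2.21% and 2.65% in 143B. GLI2 made up 9.20% and 13.6% in JJ012 and 43.4% and 44.7% in 143B.

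The PTHrP arm was read on opposite sides in the lines. PTHLH (ENSG00000087494, chromosome 12, 27958084 to 27972733, minus strand) had 19 and 7 counts in the JJ012 control and treated libraries and 46 and 120 counts in those of 143B. PTH1R (ENSG00000160801, chromosome 3, 46877721 to 46903799, plus strand) had 182 and 92 counts in JJ012 and 6 and 11 counts in 143B. In FPKM, the ligand reached 2.05 in treated 143B and the receptor 3.40 in the JJ012 control. PTH, which encodes parathyroid hormone, and the receptor gene PTH2R had 0 counts in every library, and the related ligand gene PTH2 had 4 and 2 counts in JJ012 and 0 in 143B.

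**Figure D1:**
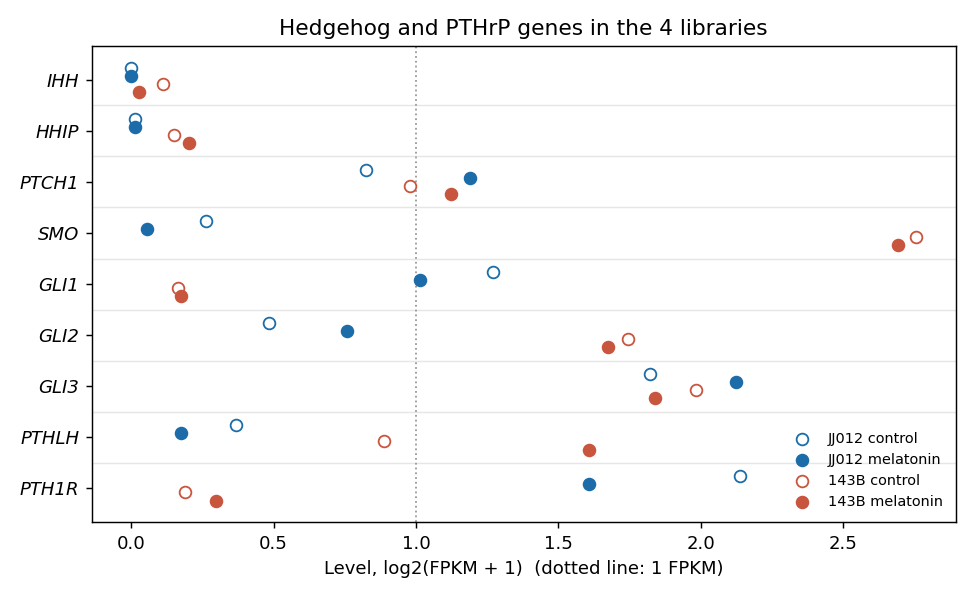
Level of the 9 genes (rows) as log2(FPKM + 1) on the horizontal axis, with 1 point per library; open circles are controls, filled circles are melatonin, blue is JJ012 and red is 143B. SMO and GLI2 lie to the right in 143B, GLI1 and PTH1R to the right in JJ012, and IHH and HHIP lie near 0 in each library.

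For each comparison, a gene was called by the FPKM rule where log2((FPKM + 1)/(FPKM + 1)) was at least 0.58 in size, the fold threshold of the study, and at least 1 of the 2 libraries reached 1 FPKM. Since this pseudocount shrinks the change of genes with low FPKM, a second rule was applied to the counts. By the count rule, a gene was called where the log2 ratio of CPM was at least 0.58 in size, its interval excluded 0 and the 2 libraries held at least 10 counts together. Calls compare libraries, not conditions.

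The untreated lines differed most. In the JJ012 control, PTH1R was 25.1-fold higher than in the 143B control (95% interval 11.3 to 69.2) and GLI1 was 11.4-fold higher (5.81 to 25.5). SMO was 29.2-fold lower (18.3 to 49.8), GLI2 was 5.81-fold lower (4.38 to 7.80) and PTHLH 2.93-fold lower (1.68 to 5.29). HHIP was 12.7-fold lower, which rests on 2 and 21 counts (3.10 to 112). By the FPKM rule, 2 members were called higher in JJ012 and 2 lower among the 5 that reached 1 FPKM, where 41.3% of all tested genes were called higher and 27.4% lower. By the count rule, 2 were called higher (PTH1R and GLI1) and 4 lower (SMO, GLI2, PTHLH and HHIP) among the 8 with enough counts, where 45.6% of all tested genes were called higher and 25.6% lower. With so many genes called, the number of members called is no result about the members.

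PTCH1 and GLI3 were close in the untreated lines. The log2 ratio of CPM, JJ012 over 143B, was -0.33 for PTCH1 (-0.58 to -0.08) and -0.22 for GLI3 (-0.38 to -0.06). Over all genes the median of this ratio was 0.33, and it was -0.02 with TMM library sizes. With these sizes PTCH1 had a ratio of -0.68 and was called lower, while GLI3 had -0.57. Less the trend over exonic length described below, PTCH1 had -0.08 and GLI3 0.06.

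After melatonin, JJ012 held more PTCH1 and GLI2 transcripts and fewer of PTH1R and SMO. By CPM, PTCH1 rose 1.67-fold (1.42 to 1.96) and GLI2 rose 1.71-fold (1.21 to 2.41). PTH1R fell 1.66-fold (1.29 to 2.16) and SMO fell 5.04-fold (1.47 to 26.7), the last resting on 18 and 3 counts. By the count rule, 2 members were called higher and 2 lower among the 7 with enough counts, and of all tested genes 18.4% were called higher and 24.2% lower. By the FPKM rule, 0 members were called among the 4 that reached 1 FPKM, where 19.6% of all tested genes were called higher and 18.6% lower. PTH1R had the largest log2 ratio of FPKM among these 4, -0.53.

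The remaining members of JJ012 were not called. GLI1 had a log2 ratio of CPM of -0.47 (-0.91 to -0.05), short of the fold threshold, and GLI3 had 0.40 (0.25 to 0.56). PTHLH had -1.19, but with 19 and 7 counts its interval, -2.68 to 0.12, included 0. Of the targets among the members, PTCH1 rose, GLI1 was not called and HHIP was at the floor.

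The direction in JJ012 went with exonic length. Of the 7 members with enough counts, the 3 with a ratio above 1, GLI2, GLI3 and PTCH1, have exonic lengths of 7720, 13799 and 17281 bases. The 4 with a ratio below 1, PTH1R, PTHLH, GLI1 and SMO, have lengths between 2783 and 4750 bases. Over all genes of JJ012, the median log2 ratio of CPM was -0.35 for genes under 3000 bases, -0.10 for genes from 3000 to 7000 bases and 0.20 for longer genes. In 143B the same medians were 0.04, 0.05 and 0.00.

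The running median over exonic length was subtracted to see what was left, a step chosen after seeing the data. After this step, the log2 ratio of CPM in JJ012 was 0.48 for PTCH1 (0.25 to 0.72) and -0.34 for PTH1R (-0.71 to 0.03), so that neither was called. GLI2, at 0.62 (0.13 to 1.12), and SMO, at -2.34 (-4.75 to -0.56), were still called. On the FPKM scale, PTCH1, GLI2 and GLI3 were left with log2 ratios of 0.01, 0.01 and 0.00. The pseudocount shrinks ratios at low FPKM, so these values can understate what is left. GLI2, at 0.40 and 0.69 FPKM, also lay under the 1 FPKM that genes had to reach to enter that trend. The part of length in these changes was not tested.

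**Figure D2:**
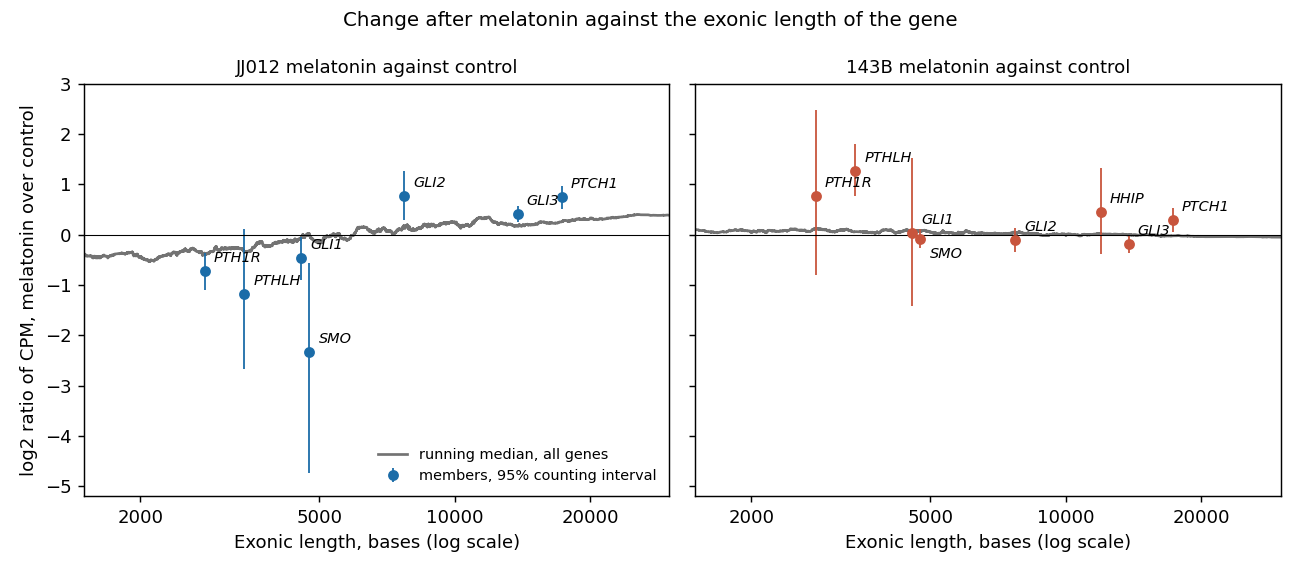
Exonic length of each gene in bases (log scale) against the log2 ratio of CPM, melatonin over control, in JJ012 (left) and 143B (right); points are members with their 95% counting intervals, and the grey line is the running median of all genes with enough counts. The line climbs with length in JJ012, where GLI2, GLI3 and PTCH1 lie above 0 and PTH1R, PTHLH, GLI1 and SMO below it, and it stays near 0 in 143B.

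In 143B, PTHLH was the member that moved. It rose from 46 to 120 counts and from 0.85 to 2.05 FPKM, which is 2.41-fold by CPM (1.71 to 3.47) and a log2 ratio of FPKM of 0.72. It was called by both rules, and also less the trend over exonic length, at 1.21 (0.71 to 1.74). By the FPKM rule it was 1 member called higher among the 5 that reached 1 FPKM, with 0 called lower, and of all tested genes 6.09% were called higher and 6.65% lower. By the count rule it was 1 of the 8 with enough counts, with 0 called lower, and of all tested genes 8.66% were called higher and 7.88% lower.

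The Hedgehog members of 143B were not called. SMO had a log2 ratio of CPM of -0.08 (-0.27 to 0.12) and GLI2 had -0.10 (-0.34 to 0.14), both well counted. GLI3, at -0.19 (-0.36 to -0.03), and PTCH1, at 0.29 (0.06 to 0.53), lay beyond counting error but under the fold threshold. GLI1, PTH1R and HHIP, with 31 counts or fewer in a library, had intervals from -1.41 to 1.52, -0.80 to 2.48 and -0.39 to 1.32, which are too wide to read a change from.

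The size of the ratio was also set side by side in the lines, as JJ012 minus 143B in log2 ratio of CPM. It was 0.45 for PTCH1 (0.12 to 0.77), higher after melatonin in both lines, -2.25 for SMO (-4.03 to -0.48) and -0.51 for GLI1 (-1.88 to 0.85). Less the trend over exonic length, PTCH1 was left with 0.17 (-0.16 to 0.49). These intervals hold for counting error alone, and whether the lines differ in their response could not be tested.

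All 4 libraries were also fitted together with edgeR's quasi-likelihood test, with cell line and melatonin as additive terms, a fit added after seeing the data. It asks for a change after melatonin that both lines share, and a response that differs between the lines enters its residual. For melatonin, 0 of the 8 members tested passed (IHH was not tested), with an adjusted p of 1 for each in edgeR and 0 members at an unadjusted p under 0.05. PTCH1 had a log2 fold change of 0.51, with an unadjusted p of 0.213 in edgeR. Of all 19301 genes tested, 0.0622% were called higher and 0.290% lower. For the cell line, SMO, GLI2, PTHLH and HHIP were called lower in JJ012 and PTH1R and GLI1 higher, with adjusted p in edgeR between 9.74e-24 (SMO) and 0.000806 (HHIP), where 27.5% of all genes were called higher and 20.4% lower. PTCH1, with an adjusted p of 0.566, and GLI3, with 0.826, were not called by edgeR. These p-values rest on 1 residual degree of freedom and on 2 libraries per line that also differ in treatment.

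**Figure D3:**
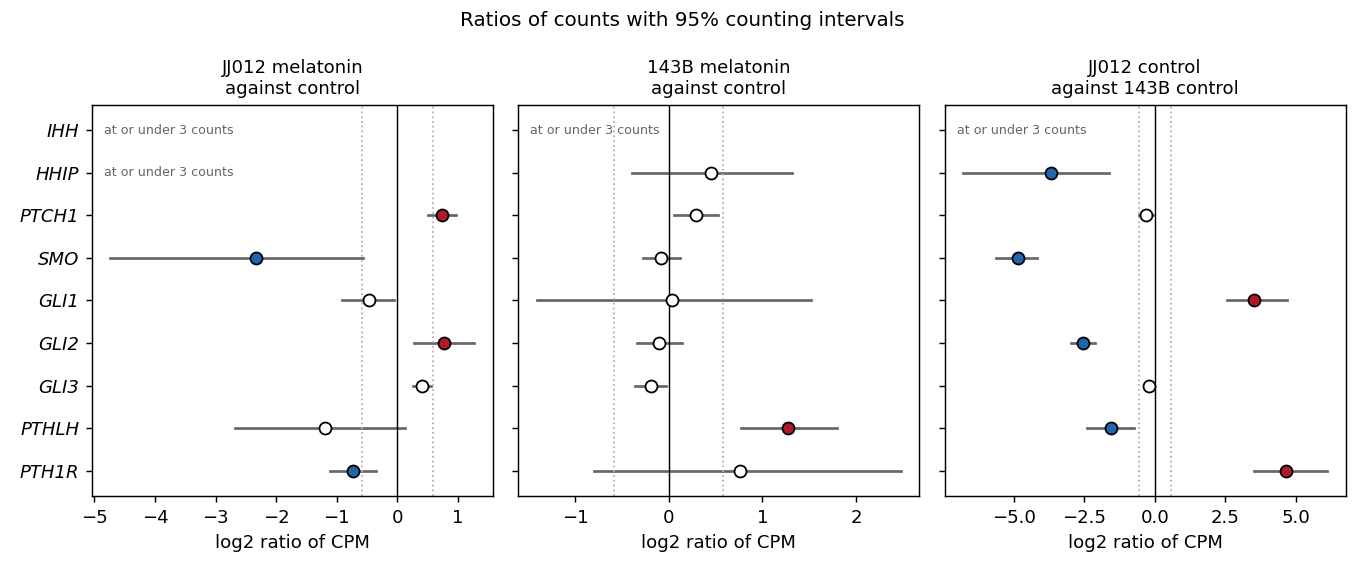
log2 ratio of CPM (horizontal axes, which differ in range) of each gene in the 3 comparisons, with 95% counting intervals as bars; red points were called higher and blue points lower by the count rule, white points were not called, and dotted lines mark 0.58 in each direction. The untreated lines differ most, with PTH1R and GLI1 to the right and SMO, HHIP, GLI2 and PTHLH to the left, and PTHLH is the single called gene in 143B.

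The wider pathway was described from lists. Among 8 genes of ligands and their release, 0 were called by the FPKM rule in JJ012. By the count rule 1 of the 5 with enough counts in JJ012 was higher and 3 lower, beside 18.4% and 24.2% of all tested genes. SCUBE3 had 19 and 37 counts there, and HHAT had 387 and 211. In 143B, SHH fell 2.34-fold by CPM (log2 ratio -1.23, interval -1.59 to -0.88) and SCUBE3, whose secreted protein belongs to a family that helps to free hedgehog ligands from cells, rose from 440 to 934 counts, 1.97-fold. In the untreated lines SHH was 131-fold lower in JJ012, on 2 counts against 217 (log2 ratio -7.04, interval -10.09 to -5.17). SCUBE1 was 19.4-fold lower and SCUBE3 28.0-fold lower in JJ012, while HHAT, the acyltransferase that attaches palmitate to the ligands, was 12.3-fold higher, with 387 counts against 26.

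Among 8 genes of reception, 0 were called by the FPKM rule after melatonin in either line, and by the count rule PTCH1 was higher and SMO lower in JJ012 and BOC (258 and 170 counts) lower in 143B. By the FPKM rule all 4 that reached 1 FPKM in the untreated lines were lower in JJ012, beside 27.4% of all tested genes. These 4 were SMO and the co-receptors BOC, CDON and GAS1. BOC had 10 counts in JJ012 against 258, 31.2-fold lower, CDON was 1.88-fold lower and GAS1 was 5.26-fold lower. LRP2, a large endocytic receptor, had 0 counts in the JJ012 control and 74 in the 143B control, at least 29.8-fold lower when set against the floor of 3 counts.

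Among 16 genes of transduction, 14 reached 1 FPKM in JJ012, with a median log2 ratio of FPKM of 0.21 against 0.01 over all genes. Of the 14, 2 rose and 0 fell, beside 19.6% and 18.6% of all tested genes. The 2 that rose were EVC, a ciliary protein that acts beside SMO, from 340 to 735 counts (2.57-fold), and GSK3B, a kinase that phosphorylates GLI proteins, 1.76-fold. Their exonic lengths are 7144 and 17871 bases. In 143B, 0 of 15 were called by the FPKM rule, with a median of 0.18 against 0.03, and 1 by the count rule, the ciliary kinesin gene KIF7 (109 and 198 counts). SUFU, which holds GLI proteins in the cytoplasm, had 329 and 270 counts in JJ012 (log2 ratio -0.03) and 208 and 306 counts in 143B (log2 ratio 0.45, interval 0.19 to 0.71). In the untreated lines, EVC2, the partner of EVC, had 2 counts in JJ012 and 118 in 143B, and STK36, a relative of the fly kinase Fused, was 3.29-fold higher in JJ012.

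Of 14 target genes, 8 reached 1 FPKM in JJ012, where 1 rose and 2 fell by the FPKM rule, with a median log2 ratio of 0.09. Of all tested genes in JJ012, 19.6% were called higher and 18.6% lower. BCL2, which restrains apoptosis, went from 31 to 228 counts (8.76-fold), the bone morphogenetic protein gene BMP4 from 153 to 31 (4.15-fold lower) and SNAI1, a driver of mesenchymal change, from 183 to 87 (1.77-fold lower). In 143B, 1 of the 10 that reached 1 FPKM rose and 2 fell, beside 6.09% and 6.65% of all tested genes. The median was -0.19. The proto-oncogene MYCN fell 2.51-fold, the mitotic factor gene FOXM1 fell 1.87-fold and the Wnt antagonist SFRP1 rose by 0.67 in log2 ratio of CPM, from 82.85 to 132.26 FPKM. In the untreated lines 10 targets reached 1 FPKM, and of all tested genes 41.3% were called higher in JJ012 and 27.4% lower. Of the targets, 2 were higher in JJ012, GLI1 and BMP4, and 7 were lower, with a median of -1.55 against 0.29 over all genes. SFRP1 (290-fold lower), CCND2, a D cyclin (616-fold lower, on 4 and 2038 counts), and MYCN (65.9-fold lower, on 2 and 109 counts, log2 ratio -6.04, interval -9.11 to -4.16) were among them, and the forkhead gene FOXF1 had 0 and 539 counts, at least 217-fold lower.

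Of 17 genes of the primary cilium, the organelle in which SMO acts, 4 of the 16 that reached 1 FPKM rose in JJ012 and 0 fell, beside 19.6% and 18.6% of all tested genes. Among these were KIF3A, a motor subunit (611 to 1187 counts), DYNC2H1, the retrograde motor (535 to 800), and CEP290, a transition zone protein (880 to 1740). The exonic lengths of these 3 are 6860, 15012 and 25131 bases, and the list's median of 0.04 was close to that of all genes, 0.01. In 143B, 0 were called by the FPKM rule, with a median of 0.15, and by the count rule 2 were higher, KIF3A (401 and 688 counts) and TTC21B (399 and 649).

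Of 32 genes of PTHrP signalling, 26 reached 1 FPKM in JJ012, where 4 rose and 3 fell by the FPKM rule, shares no larger than those of all tested genes, with a median log2 ratio of 0.07. SIK1, a kinase that is itself induced by cyclic AMP, rose from 288 to 864 counts (3.57-fold), and GNAS, which encodes the stimulatory G protein below PTH1R, fell from 20940 to 8160 counts (2.16-fold). The adenylyl cyclase gene ADCY3 rose 1.99-fold, and the nuclear receptor gene NR4A1 rose 2.41-fold. In 143B, 3 of the 26 that reached 1 FPKM rose and 2 fell, beside 6.09% and 6.65% of all tested genes. The median was -0.02. RGS2, a regulator of G protein signalling, rose from 145 to 406 counts (2.59-fold), the phosphodiesterase gene PDE4B rose 1.91-fold and PTHLH rose as given above, while GNAS fell 1.62-fold and ADCY7 fell 1.64-fold. GNAS was called lower by both rules in both lines, and PDE4B, called higher in 143B, was called lower in JJ012, from 222 to 77 counts.

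In the untreated lines, 28 of these genes reached 1 FPKM, of which 5 were higher and 13 lower in JJ012, with a median of -0.34 against 0.29 over all genes. Of all tested genes 41.3% were higher and 27.4% lower. RGS2 was 43.8-fold lower and GNAQ, a further G protein below the receptor, was 4.86-fold lower. HDAC4, a histone deacetylase that restrains hypertrophy, had a log2 ratio of FPKM of -1.84, and the phosphodiesterase gene PDE4D had -1.89. MEF2C, which HDAC4 opposes, was 5.67-fold higher in JJ012.

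Of 11 growth plate regulators, 4 reached 1 FPKM in JJ012, where SOX9 fell and RUNX3 rose by the FPKM rule. Of all tested genes in JJ012 18.6% were called lower by that rule and 19.6% higher. In 143B 5 reached 1 FPKM, and CDKN1C fell and FGFR3 rose, beside 6.65% and 6.09% of all tested genes. SOX9 went from 1138 to 391 counts in JJ012, 2.44-fold lower. RUNX3, which acts with RUNX2 in maturation, went from 48 to 138 counts (3.42-fold). FGFR3, which restrains growth plate chondrocytes, rose 1.56-fold in 143B, and the cell cycle inhibitor gene CDKN1C fell 1.67-fold. RUNX2 was also lower in 143B by the count rule, from 557 to 386 counts (log2 ratio -0.64, interval -0.83 to -0.45). By that rule 1 of the 9 with enough counts in 143B was higher and 2 lower, beside 8.66% and 7.88% of all tested genes. By the count rule 1 of the 9 with enough counts in JJ012 was higher and 5 lower, beside 18.4% and 24.2% of all tested genes. FGFR3 went the other way there, from 85 to 22 counts. CDKN1C was lower in JJ012 as well, from 36 to 16 counts (log2 ratio -0.92, interval -1.87 to -0.03). In the untreated lines RUNX3 was 31.4-fold and FGFR3 12.8-fold lower in JJ012. COL10A1, the marker of hypertrophic chondrocytes, had at most 4 counts in each library. SOX9 is also 1 of the 14 chondrocyte markers, of which 5 reached 1 FPKM in JJ012 and all 5, SOX9 among them, were called lower, with a median of -1.32. Of the osteoblast markers 2 of the 6 that reached 1 FPKM were called lower, COL1A1 (1891 and 112 counts) and COL1A2 (2594 and 24 counts), as were 3 of 4 of the markers of other cell types. Of all tested genes in JJ012 18.6% were called lower.

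**Figure D4:**
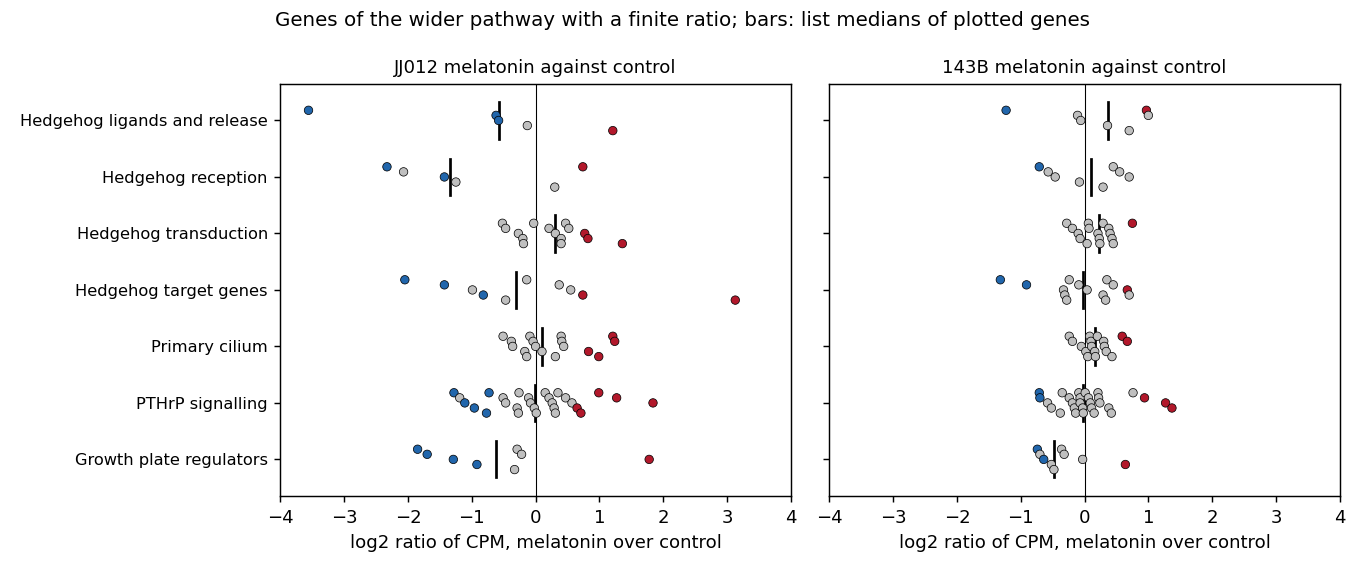
log2 ratio of CPM, melatonin over control, of the genes of 7 lists (rows) in JJ012 (left) and 143B (right), with 1 point per gene that had at least 10 counts in the 2 libraries and a count above 0 in each; red and blue points were called higher and lower by the count rule, grey points were not called, and black bars are medians of the plotted genes. Points spread more widely in JJ012 than in 143B, and the cilium and transduction lists have called points to the right of 0 alone.

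Reads near the members could be shared with other genes. All 9 members overlap at least 1 other gene of the table, 16 in all, and whether the counting used strand is not given in the sources used here. Most of these had few counts. MYL3, on the other strand from PTH1R, had 67 and 18 counts in JJ012 beside 182 and 92 of PTH1R. ARHGAP9, which shares 5 bases with GLI1 on the other strand, had 41 and 6 counts in JJ012. HHIP-AS1, antisense to HHIP, had 9 and 0 counts in JJ012 and 10 in each 143B library.

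The genes whose levels were most like those of a member were found by the root mean square distance of log2(FPKM + 1), centred over the 4 libraries, among genes with at least 5 FPKM in a library. Nearest to PTHLH were DUSP7, AHCY and ABHD10, at distances of 0.077, 0.086 and 0.093. Nearest to GLI1 were RNF150, SHARPIN and MIEN1, at 0.008, 0.010 and 0.013. With 4 libraries such likeness is common, and 51 genes lay within 0.2 of PTHLH and 826 within 0.2 of GLI1.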

How the data were processed

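Poly(A)-selected RNA from JJ012 and 143B cells in suspension was sequenced as paired ends, with 1 library per condition. The authors deposited raw counts per gene and the FPKM, which equal the counts over exonic length and library total to within 0.005. The submitters' processing notes name cutadapt 1.9.1, HISAT2 2.2.1, HTSeq 0.6.1, DESeq2 and hg38. The annotation release and the strand setting are not given in the sources used here. Columns were matched to samples by cell line, with the suffix T read as melatonin. Of 58254 genes shared with GENCODE 29, 99.84% overlapped in position.

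The log2 ratio of FPKM (pseudocount 1, filter 1 FPKM, threshold 0.58) and the ratio of counts over library totals with its exact interval (at least 10 counts) were computed over all genes. With 1 library per condition, no test was run within a line. An edgeR quasi-likelihood fit with line and melatonin as terms (TMM, filterByExpr, Benjamini-Hochberg adjusted p under 0.05) was added after seeing the data. The difference between the lines in log2 ratio has a normal 95% interval from the counts. Both rules and that fit were tested on simulated counts. The alternatives tried were no filter or one of 5 FPKM, a pseudocount of 0.1, TPM, CPM, centring, a threshold of 1, TMM and DESeq2 scaling, a minimum of 30 counts and, added after seeing the data, a length trend (running median over 501 genes). The members and the lists were chosen with earlier results of these data known. Named genes are the members, genes in the same roles, genes that overlap a member, the nearest genes by level, and of each list up to 4 genes called by both rules, by size. COL2A1, CD3E, IBSP, DMP1, LRP2, COL10A1 and the list genes described by the count rule alone were chosen after their values were seen. The fit used edgeR 4.0.16, and scaling factors came from edgeR and DESeq2 1.42.0 in R 4.3.3, and the rest from Python 3.11.15 (numpy 2.4.6, pandas 2.3.3, scipy 1.17.1, matplotlib 3.10.9). Some genes of the lists are not reported here by name.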

Additional observations from a re-analysis of the deposited data

Results flagged for a closer look

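In 4 members the ratio of CPM after melatonin had opposite signs in JJ012 and 143B, with a 95% interval of the difference between the lines, from counting error alone, that excluded 0. The share of all genes that meet this rule was not counted, so the number of members is no result about the members. With 1 library per condition the difference between the lines was not tested. Of the 4, GLI3 alone had an interval that excluded 0 in both lines. PTHLH had a log2 ratio of -1.19 in JJ012 and 1.27 in 143B, a difference of -2.46 (-3.80 to -1.12), with 7 counts in the treated JJ012 library. PTH1R had -0.73 in JJ012 and 0.76 in 143B, a difference of -1.50 (-2.98 to -0.02), which rests on 6 and 11 counts in 143B. Less the trend over exonic length, chosen after seeing the data, it was -0.98 (-2.46 to 0.50), which included 0. GLI2 had 0.77 in JJ012 and -0.10 in 143B, a difference of 0.87 (0.34 to 1.40). GLI3 had 0.40 in JJ012 and -0.19 in 143B, a difference of 0.60 (0.38 to 0.82). Less the same trend, the difference was -2.07 for PTHLH (-3.41 to -0.73), 0.73 for GLI2 (0.20 to 1.26) and 0.41 for GLI3 (0.19 to 0.63).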

How the results depend on the processing

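Of 72 counts of called genes recomputed under an alternative, 56 stayed within 1.5 times the value given above. By the FPKM rule in JJ012, 0 members were called, against 2 with a pseudocount of 0.1 FPKM, 3 with TPM and 3 with CPM. In 143B, 1 member was called, against 0 with a filter of 5 FPKM and 0 with a threshold of 1. Between the untreated lines, 1 member was called with a filter of 5 FPKM, against 4. With at least 5 FPKM, 3352 genes were called in all in JJ012, 547 in 143B and 6152 between the untreated lines, against 6036, 1801 and 11626. With TPM, which exceed the FPKM of the same library and so pass more genes, these were 12226, 6039 and 18419. A threshold of 1 left 2327 genes in JJ012 and 629 in 143B, and a pseudocount of 0.1 FPKM gave 2948 in 143B.

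By the count rule in JJ012, 4 members were called, and 2 less the trend over exonic length. With at least 30 counts, SMO in JJ012 and HHIP between the lines could not be called. Of 115 log2 ratios of FPKM recomputed for members, 21 moved beyond counting error and 5 changed sign, none of them a value called by the FPKM rule. Between the untreated lines, PTCH1 went from -0.15 to 0.13, GLI3 from -0.16 to 0.10 and HHIP from -0.14 to 0.13 less the trend over exonic length. On the count scale HHIP was still called lower, at -3.51. GLI1 in 143B went from 0.01 to -0.01 when centred and -0.04 less the trend. Where no cause is given, it was not tested. With the cell lines taken as pairs (cell line as a block in edgeR), 12 genes were called higher and 56 lower after melatonin, with 0 members among them, and 480 and 659 had an unadjusted p under 0.05. Within a line no paired analysis was possible because each condition has 1 library, and no library could be left out. Genes with few counts, such as IHH, HHIP in JJ012 and GLI1 in 143B, are limited by depth.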
